A study of Mus musculus with 4 samples.

Results

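The genes described here are 9 genes of amyloid precursor processing, tau and apolipoproteins: App, Aplp1, Aplp2, Bace1, Ncstn, Psen2, Apoe, Clu and Mapt. They were taken by gene symbol from the table of mRNA genes, where each matched 1 of 22287 genes, and the set does not hold every gene of these pathways. The libraries came from N2a, a mouse neuroblastoma line whose dividing cells resemble immature neurons, with the strain given as C57BL/6 in the labels. The Mn-treated library was made from cells cultured in MEM with 300 µM manganese for 48 h, and the untreated library from N2a cells whose title names no manganese. Both were total RNA libraries with ribosomal RNA removed, and the treatment text is the same for both, so the titles alone decided which was treated. Manganese is a cofactor of many enzymes, and too much of it harms neurons.

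The Mn-treated library held 14606961 reads assigned to mRNA genes and the untreated library 13972437. With 1 library per condition, no difference has a replicate check, no p-value is given, and each ratio compares these libraries rather than the conditions. Brackets give 95% intervals that cover counting error only. Of all mRNA genes, 11872 had at least 20 reads over both libraries and are called measured, and the 9 genes were all among them. The median log2 ratio of the measured genes, Mn-treated over untreated, was 0.18 with column totals as the scale, so a ratio is to be read against that value. The cells carried the markers of a sympathetic neuroblastoma in both libraries: Tubb3, a neuronal tubulin, had 33715 reads in the Mn-treated and 33400 in the untreated library, and Hand2, a transcription factor of sympathetic neurons, had 2951 and 2674. All 10 neuronal and sympathoadrenal markers were measured. Among 7 astrocyte markers, 4 had no reads in either library, Aqp4 and S100b among them. Aldh1l1 had the most, with 53 reads in the Mn-treated and 63 in the untreated library. Reads of markers of other cell types are given with Apoe below. In bulk RNA, a change in the number of cells of a type and a change in RNA per cell cannot be told apart.

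App encodes the amyloid precursor protein, a membrane protein of neurons and many other cells. Its shedding by alpha-secretase, or by the beta-secretase Bace1, leaves a membrane stub that the gamma-secretase complex cuts, and the beta route gives amyloid-beta peptides. Aplp1 and Aplp2 are its paralogs, which are cut by the same kinds of enzyme but lack the amyloid-beta sequence. Apoe and Clu (clusterin, also called apolipoprotein J) are secreted proteins that carry lipid and bind amyloid-beta, and in brain they are best known from astrocytes. Mapt encodes tau, which binds microtubules in axons.

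All 9 genes had more reads per library total with manganese than without. Clu and Apoe were the 2 genes at least 2-fold higher in the Mn-treated library, a call made for 7.26% of all measured genes, and App lay just under 2-fold. By 1.5-fold, 4 of 9 were higher (App, Aplp2, Apoe and Clu), where 21.6% of measured genes were. None of the 9 was lower by 2-fold (1.70% of measured genes) or by 1.5-fold (5.97%). After scaling to the median ratio, Clu and Apoe were still at least 2-fold higher (4.61% of measured genes) and 0 of 9 lower (2.74%). By 1.5-fold 3 of 9 were then higher (13.4%) and 0 lower (11.3%), with Aplp2 no longer past that fold. The median log2 ratio of the 9 genes was 0.50. The counting interval lay above the median gene for 6 of them, included it for Bace1 and Ncstn, and lay below it for Mapt. A ratio above 1 by reads over column totals was common, being seen in 64.8% of measured genes. It did not hold for all 9 genes under other measures, since Bace1 was below 1 by FPKM and Mapt after scaling to the median ratio.

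**Figure D1:**
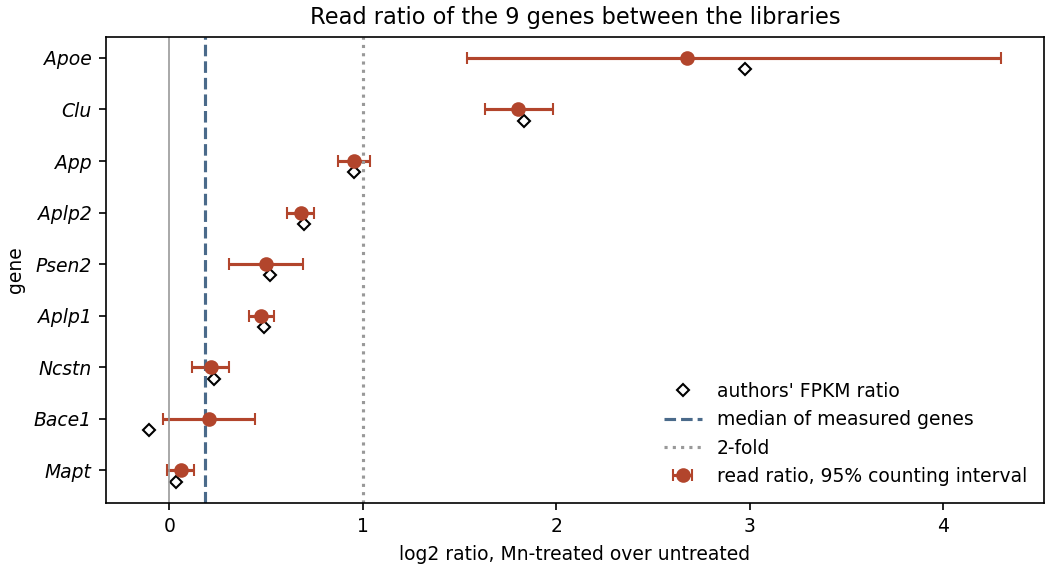
Log2 ratio of reads, Mn-treated over untreated, for each of the 9 genes, with 95% counting intervals; open diamonds give the authors' ratio of FPKM values, the dashed line the median of all measured genes (0.18) and the dotted line a 2-fold difference. Apoe and Clu lie beyond 2-fold, App at 0.96, and the 2 measures have opposite signs for Bace1.

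The 3 precursor genes were all higher in the Mn-treated library, in the order App, Aplp2 and Aplp1. App had 3543 reads in the Mn-treated library, against 1747 in the untreated library. This was a ratio of 1.94 [1.83 to 2.06], higher than that of 91.8% of measured genes. Aplp2, a broadly expressed paralog, had 4279 reads with manganese and 2557 without, a ratio of 1.60 [1.52 to 1.68]. Aplp1, the paralog found mainly in neurons, had 4780 reads with manganese and 3290 without, a ratio of 1.39 [1.33 to 1.45]. The intervals of App and Aplp2 did not overlap, nor did those of Aplp2 and Aplp1, so the 3 ratios differed from each other by more than counting error.

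On the length-scaled FPKM values of the authors, Aplp1 was the most abundant of the family in both libraries. It stood at 82.7 FPKM with manganese and 58.8 without, Aplp2 at 51.9 and 32.0, and App at 44.9 and 23.2. The family summed to 179.4 FPKM in the Mn-treated and 114 in the untreated library. App made up 25.0% of that sum with manganese and 20.4% without, Aplp1 46.1% and 51.6%, and Aplp2 28.9% and 28.1%. As a share of the reads of the 3 genes, App held 28.1% [27.3 to 28.9] in the Mn-treated library and 23.0% [22.1 to 24.0] in the untreated one, with exact binomial intervals that do not overlap. The share of Aplp2, at 34.0% [33.1 to 34.8] and 33.7% [32.6 to 34.7], had overlapping intervals.

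**Figure D2:**
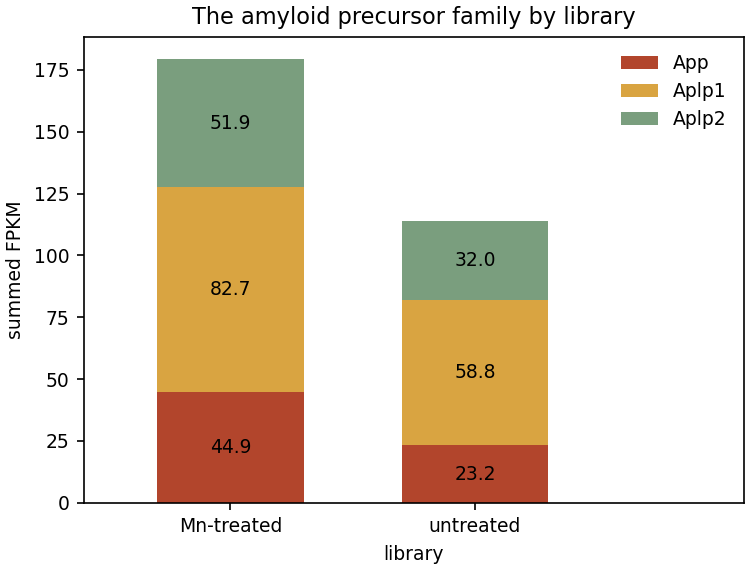
Summed FPKM of App, Aplp1 and Aplp2 in the Mn-treated library (left) and the untreated library (right), 1 library each. The stack is taller with manganese (179.4 against 114), and Aplp1 is the thickest layer in both.

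The promoters of these 3 genes are shown. All 3 had ratios above the median gene, but so had 8 of the 9 genes in all, so this does not set them apart. RefSeq windows on the mouse build GRCm38.p6 were held for 6 of the 9 genes (App, Aplp1, Aplp2, Ncstn, Psen2 and Apoe; not for Bace1, Clu and Mapt), and the 250 bases before a start site were searched on both strands for 6 sets of letters. These were CACGTG (the E-box), TTCNNGAA (core of the heat shock element), TGANTCA (AP-1), TGANNNNGC (a loose core of the antioxidant response element), TGCNCNC (a loose core of the metal response element) and GGGCGG (the GC box). All 3 windows are on the minus strand of the build, at chr16:85173708-85173957 for App, chr7:30445583-30445832 for Aplp1 and chr9:31211849-31212098 for Aplp2. They are printed 5′ to 3′ in the direction of the gene, with the base before the start site last and every match in capitals.
App: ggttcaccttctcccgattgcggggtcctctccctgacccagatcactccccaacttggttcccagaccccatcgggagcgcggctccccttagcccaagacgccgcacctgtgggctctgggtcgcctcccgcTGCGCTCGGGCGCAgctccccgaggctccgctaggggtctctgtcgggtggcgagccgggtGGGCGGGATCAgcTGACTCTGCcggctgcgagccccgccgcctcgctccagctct
Aplp1: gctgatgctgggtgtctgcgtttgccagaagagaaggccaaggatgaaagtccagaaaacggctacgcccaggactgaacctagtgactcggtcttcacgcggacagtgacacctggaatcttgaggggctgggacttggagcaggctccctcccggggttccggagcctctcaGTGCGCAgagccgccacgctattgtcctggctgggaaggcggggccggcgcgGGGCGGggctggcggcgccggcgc
Aplp2: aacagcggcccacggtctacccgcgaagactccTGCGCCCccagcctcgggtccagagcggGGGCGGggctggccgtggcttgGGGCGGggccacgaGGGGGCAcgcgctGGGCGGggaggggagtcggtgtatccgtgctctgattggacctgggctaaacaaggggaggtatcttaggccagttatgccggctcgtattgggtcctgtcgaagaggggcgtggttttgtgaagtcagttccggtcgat

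All 3 windows were rich in G and C, at 70.8% for App, 66% for Aplp1 and 66.4% for Aplp2, against a median of 52.4% over 32851 windows. Each held the GC box letters, once in App, once in Aplp1 and 3 times in Aplp2, as did 32.7% of all windows. The shares given here are over all windows and are not matched for G and C content. The metal response core letters, present in 44.4% of all windows, occurred 2 times each in App and Aplp2 and once in Aplp1. App alone of the 3 held the antioxidant response core letters, at bases -53 to -45 and -42 to -34 before the start, and the first of these overlaps the GC box at -55 to -50. Those letters are in 35.2% of all windows. None of the 3 windows held the E-box, heat shock or AP-1 letters, which were in 6.02%, 7.17% and 6.75% of windows. Of the other windows, the first of Psen2 held the antioxidant core letters 2 times, the metal response letters once and the GC box 2 times, its second held the E-box letters once, and those of Ncstn and Apoe held none of the 6. A match of letters is a description and not a binding site.

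The enzymes that cut App differed less between the libraries than App itself. Psen2, a catalytic subunit of gamma-secretase, had 568 reads in the Mn-treated library, against 384 in the untreated one. Its ratio was 1.41 [1.24 to 1.61], or 12.4 FPKM with manganese and 8.64 without. Ncstn, the gamma-secretase subunit that receives the substrate, had 1947 reads with manganese and 1606 without, a ratio of 1.16 [1.08 to 1.24]. It was at 27.2 FPKM and 23.2 FPKM. Its log2 ratio of 0.21 lay within counting error of the median gene.

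Bace1, the beta-secretase of neurons, had 327 reads in the Mn-treated and 271 in the untreated library, a ratio of 1.15 [0.98 to 1.36]. That interval includes 1. Its FPKM went the other way, at 3.94 with manganese and 4.24 without, and the log2 fold change in the authors' deposited table is -0.11. Reads per FPKM were 1.26 times as high with manganese for Bace1 as for the median gene, higher than for 93.9% of 9563 genes with at least 1 FPKM in both libraries. For App, Aplp1, Aplp2, Ncstn, Psen2, Clu and Mapt this figure lay between 0.99 and 1.03. For Apoe, which was below 1 FPKM in the untreated library, it was 0.88. Why the 2 measures part for Bace1 was not tested, so no direction is given for it. Bace2, a homologue that cuts App mainly inside the amyloid-beta sequence, was far more abundant, with 88.5 FPKM in the Mn-treated and 68.3 FPKM in the untreated library. Bace1 made up 4.26% of the summed FPKM of both enzymes with manganese and 5.85% without, but 6.04% [5.42 to 6.70] and 5.97% [5.30 to 6.70] of their reads. Bace2 is named for this comparison, after its values were seen.

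The other secretases and their partners lay on both sides of the median gene. All 10 were measured, and 2 were at least 1.5-fold higher and 0 lower, where all measured genes gave 21.6% and 5.97%. After scaling to the median ratio 1 was higher and 0 lower. Their median log2 ratio was 0.15 by reads and 0.34 by the authors' deposited table. Adam10, the main alpha-secretase of neurons, had 553 reads with manganese and 308 without, a log2 ratio of 0.78 [0.58 to 0.99]. Adam9, a related protease, had 1000 and 675 reads, at 0.50 [0.36 to 0.65]. Aph1b, a gamma-secretase subunit, was at 0.65 on fractional counts that may be divided with its close copy Aph1c. Psenen and Aph1a, unlike Aph1b, did not follow Psen2. Psenen, which activates the complex, had 1346 reads in the Mn-treated and 1389 in the untreated library, at -0.11 [-0.22 to 0.00]. Aph1a, a scaffold subunit, had 1972 and 2194, at -0.22 [-0.31 to -0.13], with fractional counts. Adam17, another alpha-secretase, was at 0.06 [-0.29 to 0.40]. In the authors' deposited table Adam10 is at 0.52 and Adam17 at 0.42, so they lie closer together there than by reads.

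Clu was the gene of the set with the clearest difference. It had 1239 reads in the Mn-treated library, against 339 in the untreated library, a ratio of 3.49 [3.10 to 3.95]. Its level was 28.0 FPKM with manganese and 7.84 without, so that it lay within counting error of Ncstn in the Mn-treated library and of Psen2 in the untreated one. Its ratio exceeded that of 98.4% of measured genes. Since 2 libraries give only 1 ratio, likeness of pattern means no more than a near ratio. Among genes with 100 reads or more in either library, those nearest to the log2 ratio of Clu (1.80) were Dclre1a at 1.82, Drp2 at 1.78 and Tmem131 at 1.84. In the authors' deposited table Clu is at 1.83, Tmem131 at 1.88, Drp2 at 1.53 and Dclre1a at 2.65, so the likeness of Dclre1a does not hold there. Of 8 other extracellular chaperones and binding proteins, 5 had no reads in either library. The 2 measured ones were Sparc, a secreted matrix protein, with 1579 reads in the Mn-treated and 1058 in the untreated library (log2 ratio 0.51), and Cst3, a secreted protease inhibitor that binds amyloid-beta, with 2103 and 1718 (0.23).

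Apoe, the main lipid carrier protein of the brain, had the highest ratio of the set but few reads. It had 43 reads in the Mn-treated library, against 6 in the untreated one. The ratio of 6.40 had an interval of 2.91 to 19.7, which overlaps that of Clu. In FPKM it was at 1.65 with manganese and 0.21 without, and the authors' deposited table gives a log2 fold change of 2.97 where the read ratio gives 2.68. It was the least abundant of the 9 genes in both libraries, above 22.0% of measured genes by FPKM with manganese and above 3.65% without. Apoe is also a gene of macrophages and glia, and some of their markers had a few reads more with manganese. C1qb had 9 reads in the Mn-treated library and none in the untreated one, C1qa 6 and 0, Itgam 6 and 0, P2ry12 3 and 0, and Csf1r 5 and 1. Aif1, Cx3cr1 and Ptprc had none in either. These 8 markers summed to 29 reads with manganese and 1 without. The ninth marker of that list, Tmem119, had 118 and 140 reads, which brought the whole list to 147 and 141. The planned list held all of these markers, and the split into 8 and Tmem119 was not planned. Astrocyte markers summed to 62 and 66 reads, of which Aldh1l1 had 53 and 63, Gja1 5 and 0, and Gfap 4 and 3. Fibroblast markers summed to 76 and 50, with Col3a1 at 18 and 0 and Col1a1 at 33 and 42. The oligodendrocyte and Schwann cell markers summed to 324 and 205 reads, of which Mbp, also expressed outside these cells, had 309 and 189. The part of other cells in the Apoe ratio was not tested.

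**Figure D3:**
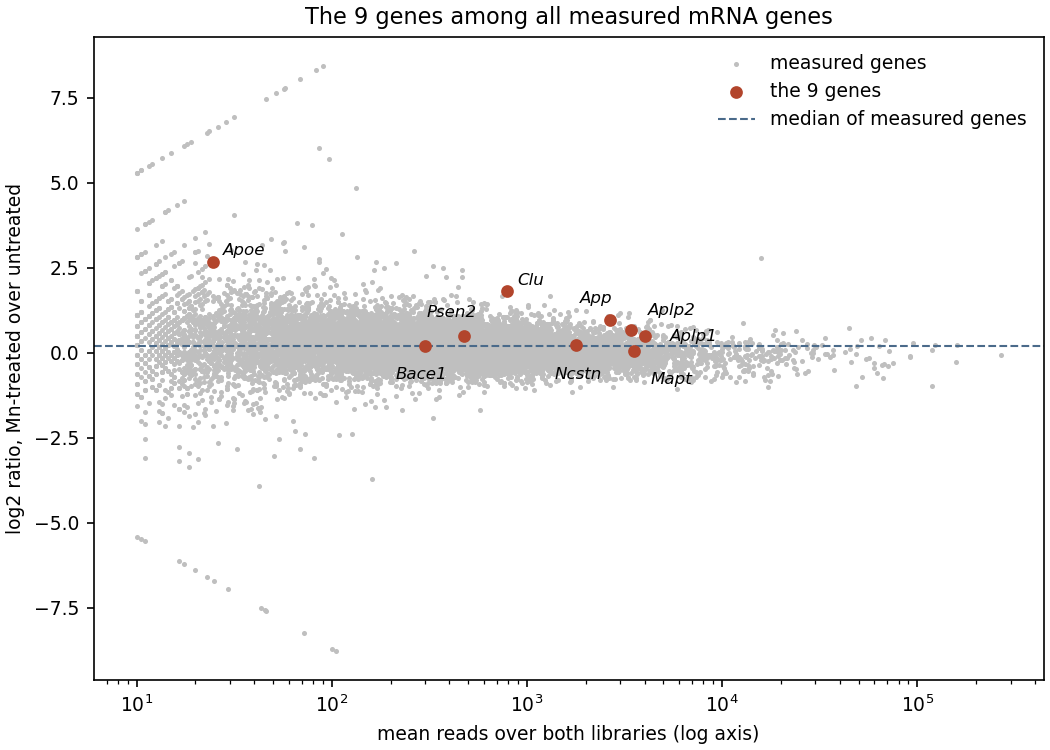
Log2 ratio, Mn-treated over untreated, against the mean reads of both libraries (log axis) for 11872 measured genes, with the 9 genes in red. Clu lies above the cloud of genes with like read numbers, Apoe lies at 43 and 6 reads where ratios scatter widely, and Mapt and Ncstn lie near the median line.

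Most other apolipoprotein genes were not detected. Of 15, 10 had no reads in either library, among them Apob, Apoc1 and Apod. Apoo and Apool, which are mitochondrial proteins despite their names, had 392 and 170 reads with manganese and 322 and 124 without, at log2 ratios of 0.22 and 0.39. Apon had 18 reads in the Mn-treated and 45 in the untreated library (-1.36 [-2.26 to -0.57]), the only one of the 3 measured genes that was lower, and it is named for that reason.

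Genes that load lipid onto apolipoproteins or take the particles up had a median log2 ratio of 0.05 over 14 measured members of 19. By 1.5-fold 2 were higher and 0 lower under both scalings, where all measured genes gave 21.6% and 5.97%, or 13.4% and 11.3% after scaling to the median ratio. The 2 were Abca1, the transporter that passes lipid to apolipoprotein E, with 303 reads in the Mn-treated and 161 in the untreated library (log2 ratio 0.85 [0.57 to 1.13]), and Lrp1, an uptake receptor of Apoe and App, with 1278 and 693 (0.82 [0.68 to 0.95]). Pltp, a phospholipid transfer protein, was at 0.57. Scarb1, a lipoprotein receptor, was at -0.18, and Nr1h3, a sterol-sensing nuclear receptor, at -0.21 on 91 and 101 reads. Abcg4, a sterol transporter, was at -0.39 by reads, but at 0.64 in the authors' deposited table. Neither Abcg1 nor Vldlr reached 20 reads.

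Mapt had the lowest read ratio of the 9 genes, with an interval that overlaps that of Bace1, which is lower than Mapt in the authors' deposited table. It had 3662 reads in the Mn-treated library, against 3364 in the untreated library. The ratio was 1.04 [0.99 to 1.09], and the log2 ratio of 0.06 became -0.12 after scaling to the median ratio. At 45.3 FPKM with manganese and 44.2 without, it was among the most abundant of the set in both libraries. In the Mn-treated library it lay within counting error of App, and in the untreated library next below Aplp1.

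Of 12 other microtubule-associated proteins measured, 10 had a higher ratio than Mapt, and Map7d1 and Map1s a lower one. By 1.5-fold 6 were higher and 0 lower, where all measured genes gave 21.6% and 5.97%. After scaling to the median ratio 2 were higher and 0 lower, where all gave 13.4% and 11.3%. Their median log2 ratio was 0.57 by reads and 0.41 by the authors' deposited table. Map1b, a large protein of growing axons, had 9085 reads in the Mn-treated and 5104 in the untreated library, at 0.77 [0.72 to 0.82]. Map7d2 had 554 and 302, at 0.81, and Map1a 2995 and 1739, at 0.72. At the other end were Map1lc3b at 0.29, Map7d1 at -0.03 and Map1s at -0.27 [-0.36 to -0.19]. Map2 and Map4, which share the repeat domain of tau, had 280 and 2497 reads with manganese and 163 and 1543 without, at 0.71 [0.43 to 1.00] and 0.63 [0.54 to 0.72]. They are named for that kinship, after their values were seen. Both intervals lie above that of Mapt (-0.01 to 0.13). Counts of Map1b, Map4 and Map1s were fractional. Of the 6 genes past 1.5-fold by reads, Map7d2 (1.15) and Map1b (0.84) are also past it in the authors' deposited table. Map2 (0.57), Map9 (0.52), Map1a (0.45) and Map4 (0.42) are below 1.5-fold there.

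Enzymes that add phosphate to tau, remove it or turn tau over had a median log2 ratio of 0.14 over 25 measured genes of 27. By 1.5-fold 3 were higher and 0 lower, where all measured genes gave 21.6% and 5.97%. With median-ratio scaling 1 was higher and 1 lower, beside 13.4% and 11.3%. Ttbk2, a tau tubulin kinase, was highest at 1.53 on fractional counts of 346 and 114 reads. Gsk3b, a main tau kinase, had 1169 reads in the Mn-treated and 665 in the untreated library, at 0.75 [0.61 to 0.89], and Ppp3ca, the catalytic subunit of calcineurin, was at 0.60. Stub1, a ubiquitin ligase that acts on tau, had 1935 and 2507 reads, at -0.44 [-0.52 to -0.35]. Ppp5c, a tau phosphatase, was at -0.31.

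Proteases that degrade amyloid-beta and proteins that sort App were mixed as well. Of 9 proteases 6 were measured, 2 at least 1.5-fold higher and 0 lower, or 1 and 1 after scaling to the median ratio. All measured genes gave 21.6% higher and 5.97% lower, or 13.4% and 11.3% so scaled. The median of the proteases was 0.24. Ctsb, a lysosomal protease, had 4636 reads in the Mn-treated and 1982 in the untreated library, at 1.16 [1.09 to 1.24]. Ctsd, another, was at 0.68 and Ide, the insulin-degrading enzyme, at 0.39, both with fractional counts. Nrd1 was at 0.09, Pitrm1 at -0.01 on fractional counts and Ece2 at -0.49 [-0.85 to -0.14], and Mme, which encodes neprilysin, had no reads in either library. Of 24 genes of App adaptors, sorting and endocytosis, 20 were measured, with 4 higher by 1.5-fold and 0 lower (21.6% and 5.97% of all measured genes), or 3 and 1 with median-ratio scaling (13.4% and 11.3%). Their median was 0.20. Picalm, a clathrin assembly protein, had 1140 and 576 reads, at 0.92 [0.77 to 1.07], and Vps35, the core of the retromer, had 1767 and 926, at 0.87 [0.75 to 0.98]. The adaptor Apba1 was at 0.97 on fractional counts, but its relative Apba3 had 1348 and 1916 reads, at -0.57 [-0.67 to -0.47]. Gga1 was at -0.25 and Sort1, with fractional counts, at -0.21. In the Alzheimer disease pathway of the annotation in the mRNA table, looked up after the lists, 139 of 165 other genes were measured. By 1.5-fold 17 were higher and 6 lower, which is 12.2% and 4.32% of them beside 21.6% and 5.97% of all measured genes. With median-ratio scaling 9 and 15 were, or 6.47% and 10.8% beside 13.4% and 11.3%. Their median was 0.06.

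**Figure D4:**
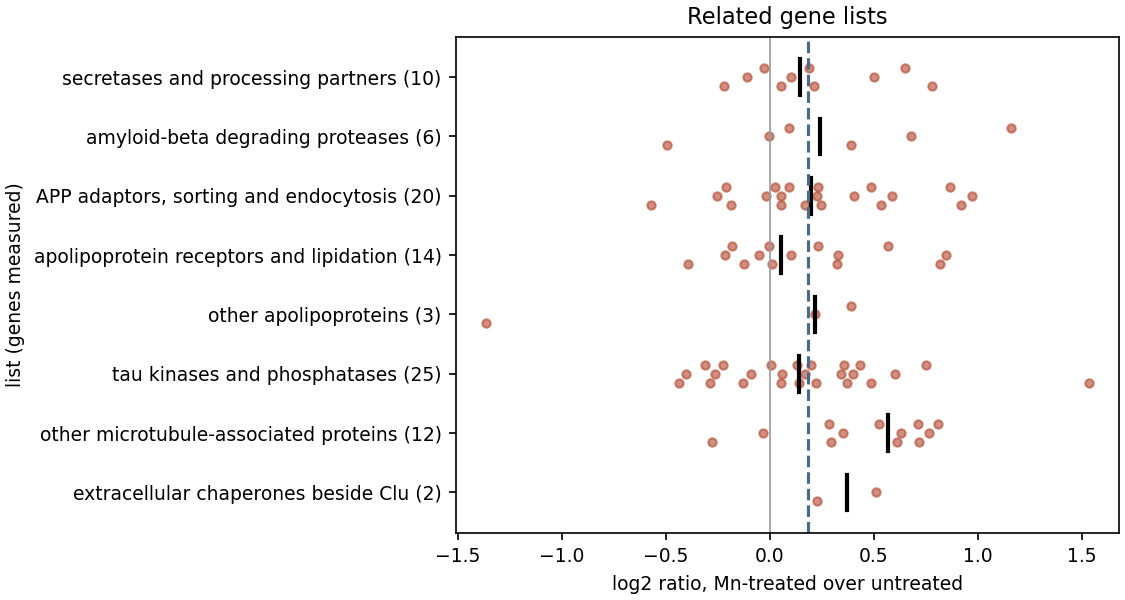
Log2 ratio, Mn-treated over untreated, of each measured gene in 8 related lists (points), with the list median (bar) and the median of all measured genes (dashed line, 0.18). The bar of the microtubule-associated proteins stands farthest to the right, at 0.57 by reads, where the authors' deposited table gives a median of 0.41.

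Between genes, levels can be compared on the FPKM scale alone. In the Mn-treated library the order was Aplp1, Aplp2, Mapt, App, Clu, Ncstn, Psen2, Bace1 and Apoe. Mapt and App did not differ beyond counting error there, nor did Clu and Ncstn. In the untreated library the order was Aplp1, Mapt, Aplp2, App, Ncstn, Psen2, Clu, Bace1 and Apoe. There App and Ncstn did not differ beyond counting error, at 23.2 FPKM each, nor did Psen2 and Clu. App thus stood at 44.9 FPKM beside 27.2 FPKM of Ncstn in the Mn-treated library, but level with it in the untreated library.

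**Figure D5:**
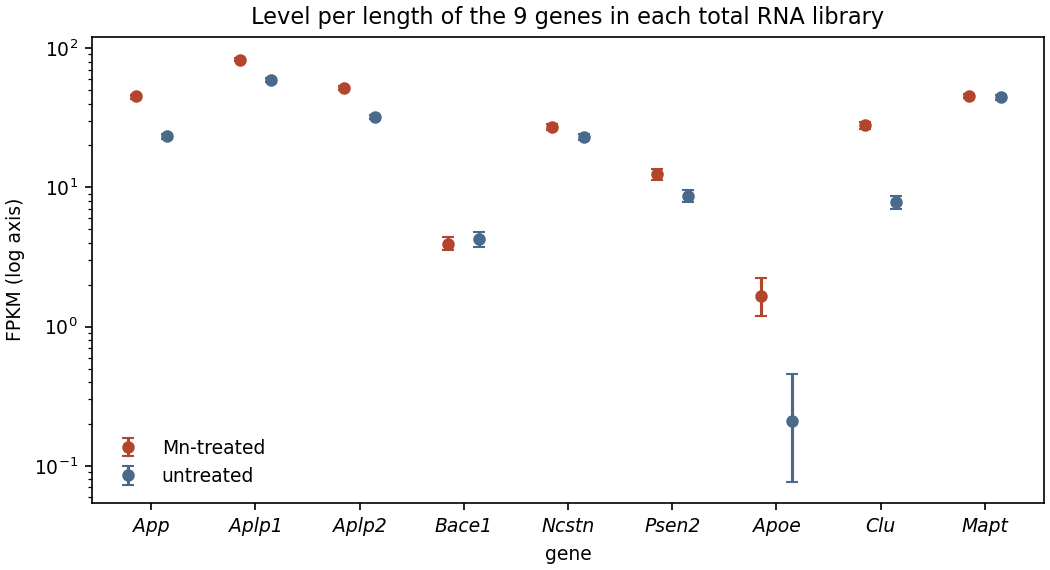
FPKM by the authors (log axis) of each gene in the Mn-treated library (left point) and the untreated library (right point), with bars for the 95% Poisson interval of the reads behind each value. App, Aplp1, Aplp2, Ncstn, Psen2, Apoe and Clu are higher with manganese beyond these bars, while the bars of Bace1 and of Mapt overlap.

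Circular RNAs, which are counted from reads that span the joined ends of the circle, were listed in the same libraries for 2 of the 9 host genes. The circRNA of App spans chromosome 16 from 85013627 to 85043743 on the minus strand, is annotated as exonic and has a spliced length of 822 bases. The coordinates are as deposited, and their build is uncertain, since the submitters' processing notes name mm9 without tying it to this table. It had 3 junction reads in the Mn-treated library [0.62 to 8.77] and 8 in the untreated one [3.45 to 15.8]. As a share of 9433 and 11665 junction reads, the ratio was 0.46 [0.08 to 1.93]. That interval includes 1. As a share of the mRNA reads, the scale of the App ratio, it was 0.36 [0.06 to 1.49], which also includes 1 and lies below the interval of App (1.83 to 2.06). As a share of junction reads, by contrast, the interval of the circRNA (0.08 to 1.93) overlaps that of App. A change of the circRNA was not detectable at this depth. Its difference from App is seen on the mRNA scale alone and rests on 11 junction reads in all. The intronic circRNA of Mapt had 2 junction reads in each library.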

How the data were processed

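The 2 total RNA libraries were used here, of 4 in the series. Tools named in the submitters' processing notes are fastp 0.18.0, Bowtie2 and StringTie, with mm9 as the build; their roles, and the counting program, were not given in the sources used here. Deposited by the authors were estimated counts per gene (fractional for 13.3% of genes, whole for the 9 described), FPKM values, and a log2 fold change that is the ratio of FPKM values. They also deposited whole junction counts of circRNAs. Estimated counts were rounded. The log2 ratio is Mn-treated over untreated, from counts plus 0.5 divided by column totals, with an exact conditional binomial (Clopper-Pearson) 95% interval. FPKM intervals scale the exact Poisson interval of the reads. Reads copied by PCR and not marked by molecular identifiers are not independent, and intervals cover counting error only. A gene was measured if it had at least 20 reads in all. No test across samples was possible with 1 library per group. The ratio step was tested on simulated data. Named genes are the 9 genes, and of each list up to 3 highest and 3 lowest ratios among genes reaching 100 reads in a library, and of marker lists those with most reads; exceptions are stated, and values of some genes under this rule are not reported here. The genes and lists were chosen with earlier results of these data known. Promoter sequences are from RefSeq (GRCm38.p6). Alternatives were median-ratio scaling, a pseudocount of 1, unrounded counts, the deposited fold changes and other read minimums. Python 3.11.15, numpy 2.4.6, pandas 2.3.3, scipy 1.17.1 and matplotlib 3.10.9 were used.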

Additional observations from a re-analysis of the deposited data

How the results depend on the processing

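With the libraries scaled by their median ratio, the log2 ratio was 0.77 for App, 0.29 for Aplp1, 0.50 for Aplp2, 0.031 for Ncstn, 1.62 for Clu and -0.12 for Mapt, as this scaling lowers every value by 0.18. With the authors' deposited log2 fold change Bace1 was at -0.11, and the cause was not tested. Of the 9 genes 1 instead of 2 was at least 2-fold higher when at least 100 reads over both libraries were asked for, because Apoe then drops out. Of all mRNA genes 862 were at least 2-fold higher and 202 lower. These counts were 547 and 325 with median-ratio scaling, 2090 and 783 with no minimum of reads, and 485 and 75 with at least 100 reads, where fewer genes were tested. A pseudocount of 1 and unrounded counts moved none of the values recomputed under them (15 each) beyond its counting interval or by more than 1.5 times. No paired analysis was possible because each group has 1 library, and none could be left out. Depth limits Apoe and the circRNAs most.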
